A study of Mus musculus with 6 samples.

Results

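The genes described here are 10 genes of glycogen metabolism in mouse tongue. They comprise 4 subunits that carry protein phosphatase 1 to glycogen (Ppp1r3a, Ppp1r3b, Ppp1r3c and Ppp1r3d), glycogen synthase (Gys1), glycogenin (Gyg), the branching enzyme (Gbe1), the muscle and liver glycogen phosphorylases (Pygm and Pygl) and UDP-glucose pyrophosphorylase (Ugp2). Membership was by name: every non-control probe whose accession belongs to one of these genes was taken, which gave 13 of the 55681 probes on the array, and 10 of the 26256 genes and unnamed probes that were tested. The list itself was chosen on the difference between DOX and no DOX on these same arrays, with the rise of Ppp1r3c already known. The differences between the groups are therefore a description of these 6 arrays, and no call made on them counts as support.

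Total RNA from tongue was hybridised to single-colour Agilent mouse arrays, 1 array for each of 6 mice. All 6 mice were on a C57Bl6 background and carried the same doxycycline-inducible Dek transgene, iDek, whose genotype label calls it both ubiquitous and squamous cell-specific and names no driver. The 3 mice of the no DOX group were untreated and the 3 of the DOX group received doxycycline, the antibiotic that switches such transgenes, for 2 weeks. No source used here gives age, sex or hour of collection, and no transgene-free mice given doxycycline were analysed here, so doxycycline and Dek induction cannot be told apart. Dek, read by 1 probe, was 1.12-fold higher with DOX (log2 0.17 ± 0.11, SE, n = 3 and 3) and was not called (limma adjusted p = 0.456); no source used here says whether that probe reads the transgene, so it does not check the labels.

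Glycogen is a branched store of glucose built on a glycogenin core. Ugp2 makes the UDP-glucose donor, glycogen synthase lengthens the chains, the branching enzyme adds branch points, and glycogen phosphorylase releases glucose 1-phosphate when the store is drawn on. Phosphatase 1, held on the particle by a targeting subunit, activates the synthase and inactivates the phosphorylase. Skeletal muscle relies on Gys1, Pygm and the muscle subunit Ppp1r3a, whereas Pygl and Ppp1r3b are best known from liver. Most of the tongue is striated muscle under a squamous epithelium, with small glands between the fibres.

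Each value below is a normalised log2 signal, in which 0 is the 75th percentile of that array, and a step of 1 is a doubling of signal. Levels of different probes are not comparable with each other, so each gene or mean of a gene list is read across arrays. Values relative to a list mean are read in the same way. Profiles of different genes are compared after each gene's own mean was removed. Each of the 13 probes was scored well above background on every one of the 6 arrays. Of the 13 skeletal muscle markers examined, 13 were tested, among them Acta1, Ckm and Myh4, with array means of 6.83 to 7.61 without DOX and 7.09 to 7.51 with DOX. The 8 squamous markers, such as Krt5, Krt14 and Krt4, had array means of 6.21 to 6.68 and 6.30 to 6.73. Of the 5 liver markers, Alb and Apoa1 were not well above background on any array and Ttr was on 1, whereas Cyp2e1 and Serpina1a were on all 6 and had higher means with DOX (log2 0.86 and 0.95) that did not pass (limma adjusted p = 0.141 and 0.100). On tissue RNA, fewer cells of a type and less RNA per cell cannot be told apart. Between 56.0% and 58.3% of probes were well above background on an array, and precision is set by there being 3 mice in each group.

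Ppp1r3c, also called protein targeting to glycogen, was the 1 member that was called, at an adjusted p under 0.05 in a fit across all probes. Its normalised log2 signal was 2.35, 2.40 and 1.57 in no DOX replicates 1 to 3 and 4.08, 4.31 and 3.77 in DOX replicates 1 to 3. The lowest DOX array lay 1.37 above the highest no DOX array, a gap wider than the range inside either group (0.83 without DOX and 0.54 with DOX). On the linear scale the processed signals were 1342, 1297 and 732 against 4199, 5003 and 3548. The mean rose from 2.11 ± 0.46 (SD, n = 3) to 4.06 ± 0.27 (SD, n = 3). That is a 3.87-fold difference, with a 95% interval of 2.52 to 5.94 (log2 1.95 ± 0.26, SE, limma adjusted p = 0.0475). The call was lost in each of the 6 fits that left out 1 array. Without no DOX replicates 1, 2 and 3 in turn the adjusted p was 0.129, 0.135 and 0.0770, and without DOX replicates 1, 2 and 3 it was 0.146, 0.0950 and 0.0688, while the log2 difference stayed between 1.68 and 2.10. With all 6 arrays it was also lost with quantile normalization (0.0551), with no filter on dim probes (0.140) and with the replicate number as a block (0.0985).

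As background for this count, 0.404% of everything tested was called in either direction, and 0.278% was called higher with DOX. Because the list was drawn up with this contrast known, nothing is read from 1 call among 10 members. The groups did not overlap for 2 of the 10 members, Ppp1r3c and Pygl, a share of 20%, beside 25.4% of everything tested. The median log2 difference of the 10 members was 0.05, with 6 higher and 4 lower means, against a median of -0.01 over everything tested.

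**Figure D1:**
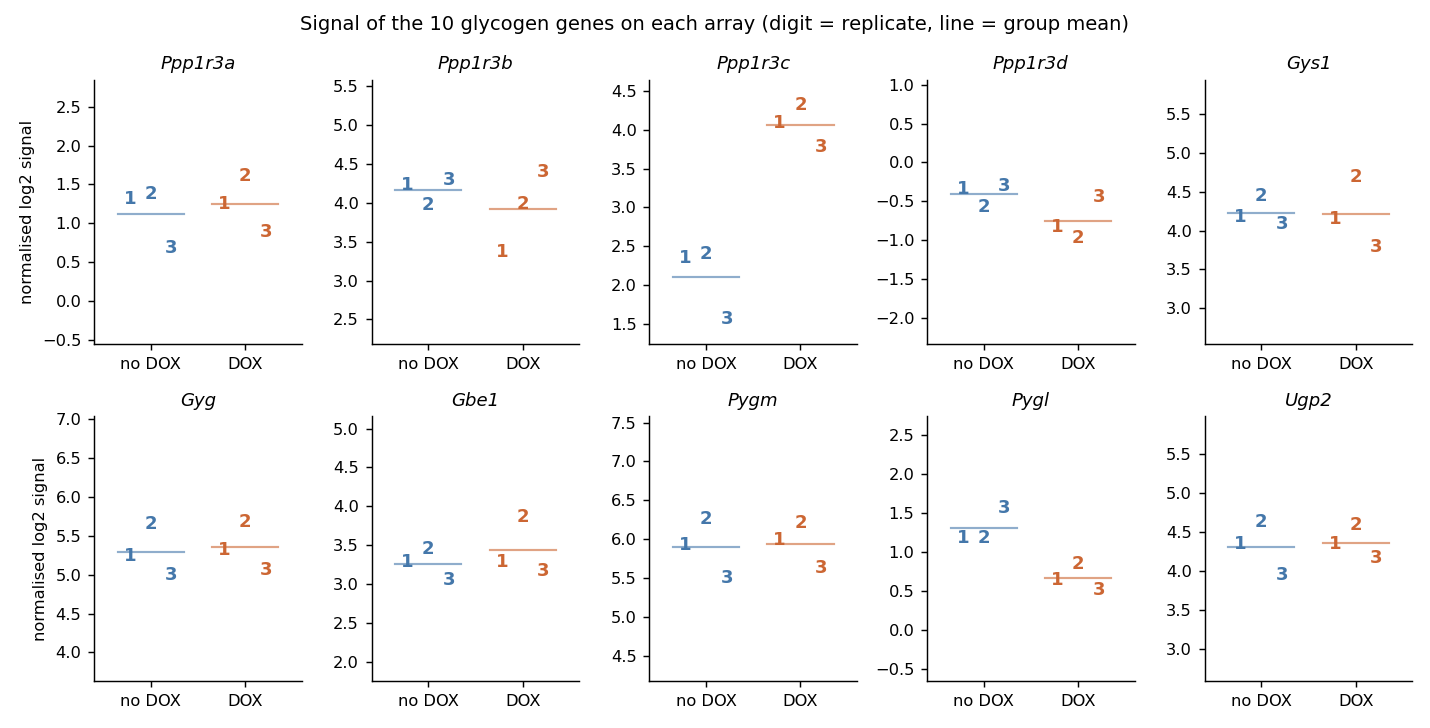
Normalised log2 signal (vertical axis, 0 is the array's 75th percentile) of the 10 genes on each array, with no DOX at left and DOX at right; each digit is a replicate and each line a group mean (n = 3). Every panel spans the same number of log2 units. Ppp1r3c had 3 DOX values above all no DOX values, Pygl had 3 below, and the other 8 genes overlapped.

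The sequence just upstream of Ppp1r3c is shown because this gene had the largest difference of the 10, and those of Pygl and Pygm because these phosphorylase genes gave a lower and a nearly equal signal with DOX. Each is the 250 bases before the annotated start, from RefSeq on GRCm38.p6, on the gene's own strand. Capitals mark CACGTG, the E-box bound by factors such as CLOCK and MYC, and CAGCTG, the E-box variant known from muscle regulatory factors. The windows are chr19:36736605-36736854 (minus strand), chr12:70227684-70227933 (minus strand) and chr19:6384158-6384407 (plus strand).
Ppp1r3c: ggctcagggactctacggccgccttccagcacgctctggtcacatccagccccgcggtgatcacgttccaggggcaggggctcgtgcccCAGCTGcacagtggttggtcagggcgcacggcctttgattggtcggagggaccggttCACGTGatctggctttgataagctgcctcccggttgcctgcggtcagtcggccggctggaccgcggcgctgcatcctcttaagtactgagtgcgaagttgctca
Pygl: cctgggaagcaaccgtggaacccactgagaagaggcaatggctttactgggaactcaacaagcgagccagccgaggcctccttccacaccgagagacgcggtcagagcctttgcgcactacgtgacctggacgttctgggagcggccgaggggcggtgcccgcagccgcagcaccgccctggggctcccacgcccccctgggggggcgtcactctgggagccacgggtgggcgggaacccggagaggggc
Pygm: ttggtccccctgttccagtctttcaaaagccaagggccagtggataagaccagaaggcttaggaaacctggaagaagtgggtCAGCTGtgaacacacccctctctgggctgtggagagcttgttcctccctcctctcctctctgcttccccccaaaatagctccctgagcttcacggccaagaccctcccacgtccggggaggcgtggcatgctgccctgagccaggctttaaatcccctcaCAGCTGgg

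A window was found for 9 of the 10 members, all but Ppp1r3b, which was not searched. Ugp2 had 2 start sites, so 10 windows were searched on both strands. CACGTG stood 104 to 99 bases upstream of the start of Ppp1r3c and 226 to 221 bases upstream of that of Ppp1r3d, and in no other member window. Of all 32851 such windows in the table, 6.02% hold it. CAGCTG occurred in 5 of the 10 member windows, those of Ppp1r3a, Ppp1r3c, Gys1, Pygm and 1 of Ugp2, and in 13% of all windows. The cAMP response element TGACGTCA, the D-box TTATGTAA and the heat shock element GAANNTTC were in 0 of the 10 windows, against 1.55%, 0.819% and 6.69% of all windows. TATAAA occurred upstream of Ppp1r3a alone among the 9 members with a window and in 12.4% of all windows. The E-box and its variant are palindromes of the form CANNTG and cannot overlap as the same 6 bases. A match describes letters in a window and says nothing of a factor bound there.

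The other 3 targeting subunits were not called. Ppp1r3a, the large subunit of striated muscle, lay at 1.31, 1.37 and 0.69 without DOX and 1.25, 1.61 and 0.89 with DOX. These ranges overlapped, with a log2 difference of 0.12 ± 0.25 (SE) and a 95% interval of 0.718-fold to 1.66-fold. Ppp1r3b, the subunit best known from liver, lay at 4.22, 3.97 and 4.29 without DOX and 3.36, 3.98 and 4.40 with DOX. DOX replicate 1 was its lowest array and DOX replicate 3 its highest, so the DOX range of 1.03 enclosed all 3 no DOX values. The log2 difference of Ppp1r3b was -0.25 ± 0.26 (SE, limma adjusted p = 0.671), and without DOX replicate 1 it was 0.03. Ppp1r3d, a widely expressed subunit, lay at -0.34, -0.58 and -0.30 without DOX and -0.83, -0.97 and -0.45 with DOX. Only DOX replicate 3 fell inside the no DOX range of Ppp1r3d, and the log2 difference was -0.35 ± 0.17 (SE, limma adjusted p = 0.321).

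The genes that build glycogen gave nearly equal means in the groups. Gys1, the muscle-type synthase, had 2 probes. Its brighter probe read 4.17, 4.44 and 4.09 without DOX and 4.15, 4.69 and 3.79 with DOX, a log2 difference of -0.02 ± 0.24 (SE). The dimmer Gys1 probe differed by 0.21 ± 0.26 (SE), so the probes differed in sign and neither difference exceeded its error. Gyg, the glycogenin that primes new chains, read 5.24, 5.65 and 4.996 without DOX and 5.31, 5.67 and 5.07 with DOX at its brighter probe. Its probes gave log2 differences of 0.05 ± 0.22 and 0.06 ± 0.19 (SE). Gbe1, which makes the branch points, read 3.28, 3.45 and 3.06 without DOX and 3.28, 3.86 and 3.17 with DOX (log2 0.17 ± 0.21, SE). Ugp2, the source of UDP-glucose, read 4.34, 4.63 and 3.95 without DOX and 4.34, 4.59 and 4.16 with DOX at its brighter probe. Its probes differed by 0.06 ± 0.20 and 0.03 ± 0.19 (SE). For Gys1, Gyg, Gbe1 and Ugp2 at their brighter probes, the 95% intervals of the fold difference ran from as low as 0.663 to as high as 1.595, so changes inside that span could not be resolved with 3 mice a group.

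The phosphorylases, which break glycogen down, gave different pictures. Pygm, the muscle enzyme, read 5.93, 6.26 and 5.50 without DOX and 5.99, 6.21 and 5.62 with DOX. Its log2 difference was 0.05 ± 0.23 (SE), a fold difference with a 95% interval of 0.699 to 1.52. Pygl, the liver-type enzyme that leukocytes also use, read 1.17, 1.18 and 1.57 without DOX and 0.64, 0.84 and 0.52 with DOX. All 3 DOX values of Pygl lay below all 3 no DOX values, with a gap of 0.33 that was about the range inside the DOX group (0.33) and below that inside the no DOX group (0.40). The mean signal was 1.56-fold higher without DOX (log2 -0.64 ± 0.15, SE), and the difference did not pass (limma adjusted p = 0.119). Over the alternatives tried its adjusted p ran from 0.0778 to 0.275 and its log2 difference from -0.73 to -0.51. The difference between the phosphorylases was not tested.

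**Figure D2:**
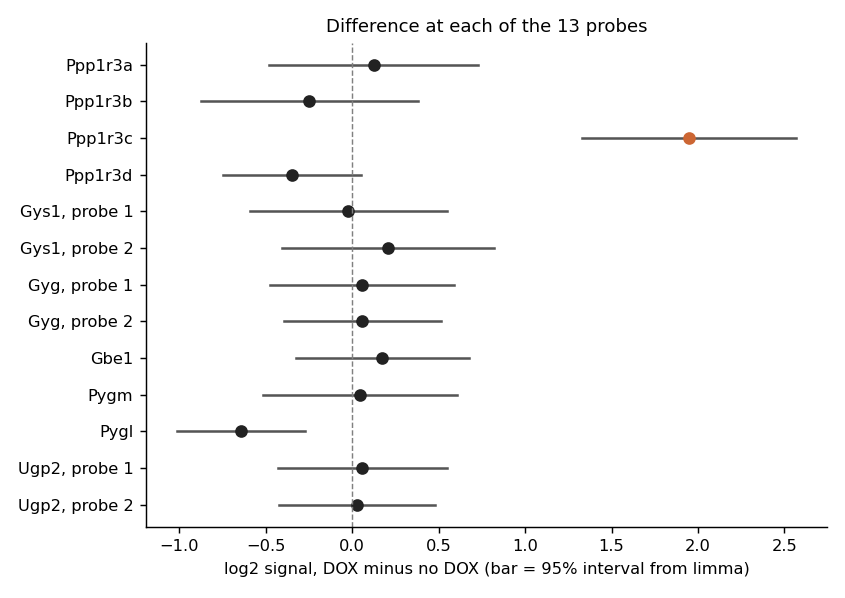
Log2 difference, DOX minus no DOX (horizontal axis), at each of the 13 probes, with the 95% interval from limma as a bar (n = 3 and 3); the orange point is the probe that was called. The intervals of Ppp1r3c and Pygl lie clear of 0 without adjustment for multiple tests, and those of the other 11 probes cross it.

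Members also varied together inside the groups, a spread that the contrast counts as error. For 7 of the 10 members (Ppp1r3a, Ppp1r3c, Gys1, Gyg, Gbe1, Pygm and Ugp2) replicate 2 was the highest and replicate 3 the lowest array in both groups, at the probe that stands for the gene. The dimmer Gys1 probe did not keep this order, since without DOX its lowest array was replicate 1 (2.38, 3.14 and 2.54). The mean of the 13 skeletal muscle markers had the same order, at 7.18, 7.61 and 6.83 without DOX and 7.26, 7.51 and 7.09 with DOX. This order in both groups held for 8.02% of the 26244 genes and unnamed probes with a value on every array and for 15 of the 43 other glycogen genes. The order was noticed on these arrays, and no source used here says that the replicate numbers pair the mice, so the shared order is a description.

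When the muscle mean of each array was subtracted, the spread of several of these genes within a group was smaller. The markers in that mean varied unequally, with ranges without DOX from 0.23 (Tnnc2) to 1.88 (Actn3). The SD of Pygm fell from 0.38 to 0.053 without DOX and from 0.30 to 0.11 with DOX. For Gyg it fell from 0.33 to 0.067 and from 0.30 to 0.097, and for Ugp2 from 0.34 to 0.072 and from 0.22 to 0.0093 (n = 3 each). For Ppp1r3a it fell from 0.38 to 0.19 and from 0.36 to 0.15. Gys1 and Gbe1 did so only with DOX, from 0.45 to 0.25 and from 0.37 to 0.18; without DOX the SD of Gys1 went from 0.18 to 0.22 and that of Gbe1 from 0.199 to 0.195. Ppp1r3c taken relative to the muscle mean lay at -4.83, -5.21 and -5.26 without DOX and at -3.18, -3.19 and -3.32 with DOX, a difference of 1.87 with an SD of 0.23 and 0.078. With the muscle mean as a covariate, an alternative chosen after seeing the data, its log2 difference was 1.87 ± 0.15 (SE, limma adjusted p = 0.0391). The muscle mean itself differed between the groups by 0.08 and no muscle marker was called. With 3 mice a group, this does not show that muscle content was equal. The part of muscle content in the difference of Ppp1r3c was not tested.

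Ppp1r3b and Ppp1r3d did not share the order of the muscle mean in either group, and Pygl shared it with DOX but not without. Relative to it, the SD of Ppp1r3b was 0.56 without DOX and 0.61 with DOX, larger than 0.17 and 0.52 before, and that of Ppp1r3d was 0.53 and 0.47, larger than 0.15 and 0.27. For Pygl the SD rose from 0.23 to 0.59 without DOX and fell from 0.17 to 0.043 with DOX. The profile over 6 arrays, after each gene's own mean was removed, differed from the muscle profile by an average of 0.032 for Ugp2, 0.056 for Pygm and 0.060 for Gyg. The same measure was 0.42 for Pygl, 0.43 for Ppp1r3d and 0.48 for Ppp1r3b, and 0.94 for Ppp1r3c, and it includes each gene's difference between the groups.

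**Figure D3:**
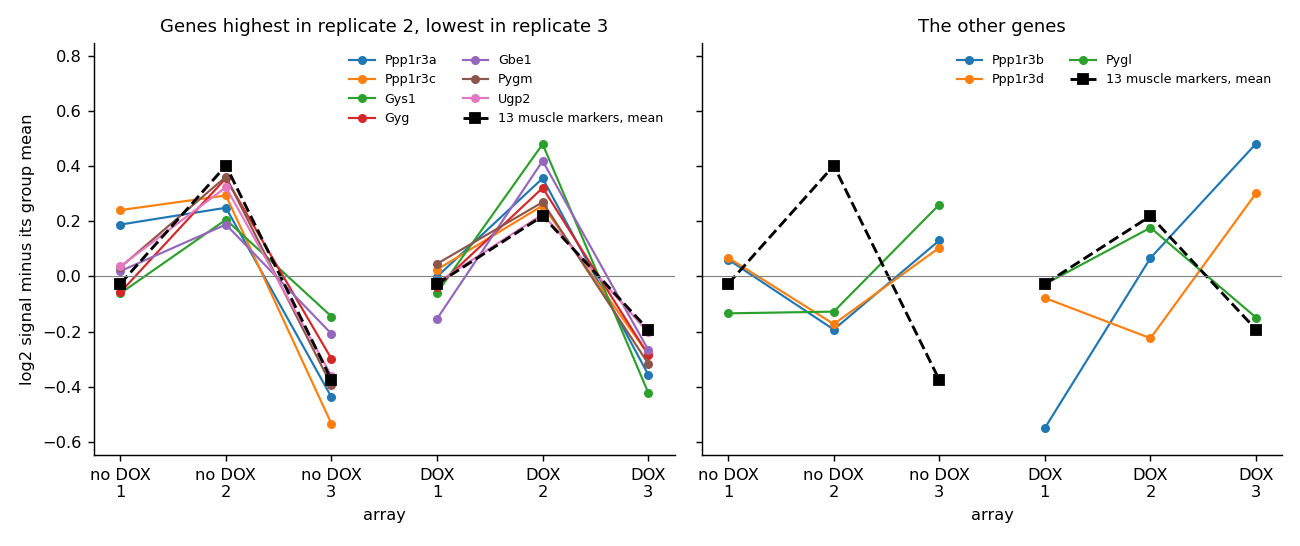
Log2 signal of each gene minus its own group mean (vertical axis) on each of the 6 arrays, with lines joining 1 gene's values and the mean of 13 skeletal muscle markers as black squares. The left panel holds the 7 genes that were highest in replicate 2 and lowest in replicate 3 of both groups, like the muscle markers; the right panel holds Ppp1r3b, Ppp1r3d and Pygl, of which Pygl had that order with DOX alone.

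Marker lists of other cell types were read beside these values, and no gene of the gland, leukocyte, slow muscle, liver or adipocyte lists was called. An unadjusted p under 0.05 was reached by 18.6% of everything tested, which is the background for the counts of such p below. The 6 salivary gland markers, led in the list by Bhlha15, Lpo and Car6, had array means of 1.95, 0.02 and 2.52 without DOX and 4.14, 4.79 and 4.07 with DOX. These did not overlap, although 0 of the 6 genes were called (5 had an unadjusted p under 0.05, limma). Aqp5 alone of the 6 had a lower mean with DOX. Car6 was well above background on 2 no DOX arrays and 3 DOX arrays, so it was tested through its DOX values. The largest log2 difference was that of Bpifa2 (6.51). The SD without DOX was widest for Bpifa2 (3.53) and Amy1 (2.47), so the list mean rests unevenly on its genes. The 7 tested neutrophil and macrophage markers, led in the list by S100a8, S100a9 and Elane, had array means of 1.77 to 2.47 without DOX. With DOX the array means were 2.41 to 2.95 in replicates 3 and 2 and 3.38 in replicate 1, so the groups overlapped. All 7 had a higher mean with DOX and 0 were called (1 had an unadjusted p under 0.05). Their log2 differences were uneven, from 0.08 to 1.86. DOX replicate 1 was the highest array for S100a8 (8.87) and for S100a9 (9.55). The 4 slow muscle markers had array means of -0.21, 0.53 and -0.83 without DOX and -1.07, -0.80 and -0.58 with DOX, which overlapped. All 4 had a lower mean with DOX, and 0 were called (1 had an unadjusted p under 0.05). Of 5 liver markers only 2 could be tested; their array means of -0.06, -0.04 and 0.06 without DOX and 0.53, 1.08 and 1.08 with DOX did not overlap, and 0 were called (2 had an unadjusted p under 0.05). The adipocyte markers averaged 1.55 without DOX and 1.57 with DOX. The part of skeletal muscle, gland, leukocyte or slow fibre content in the differences of Ppp1r3c and Pygl was not tested.

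Of 47 further genes of glycogen handling, 43 were tested and 0 were called (limma), with 3 at an unadjusted p under 0.05, beside 18.6% of everything tested. By every other fit tried, 0 were called as well. The median log2 difference was -0.04, with 19 higher and 24 lower means and a range of -0.38 to 0.56. The groups did not overlap for 8 of the 43, or 18.6%, beside the 25.4% of everything tested. The smallest p belonged to Ppp1r3f, another targeting subunit, at -4.15, -3.62 and -3.90 without DOX and -3.34, -3.19 and -3.45 with DOX. Its groups did not overlap, and the log2 difference was 0.56 ± 0.16 (SE, limma adjusted p = 0.154). The probe of Ppp1r3f was dim, though scored well above background on every array. Stbd1, which anchors glycogen to membranes, differed by 0.43 ± 0.18 (SE), and Ppp1r2, an inhibitor of phosphatase 1, by 0.26 ± 0.13. Prkar1a, a regulatory subunit of protein kinase A, differed by 0.29 ± 0.11. Among the kinases that act on these enzymes, the phosphorylase kinase genes Phkg2 and Phka2 differed by -0.27 ± 0.11 and -0.21 ± 0.10, and Gsk3b, which phosphorylates glycogen synthase, by -0.22 ± 0.10. Hk1, a hexokinase that traps glucose in the cell, differed by -0.26 ± 0.13. Each of these 8 missed the threshold, at adjusted p values of 0.154 to 0.338 (limma).

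The catalytic subunits that the targeting proteins bind were close to even, at log2 0.07 ± 0.11 for Ppp1ca and -0.01 for both Ppp1cb (± 0.09) and Ppp1cc (± 0.10, SE). These catalytic subunits were picked for mention with their values in view. Ppp1r3e and Ppp1r3g, the remaining targeting subunits on the list, were not well above background on any array. Gys2, the liver synthase, was well above background on 2 arrays and G6pc, the liver glucose 6-phosphatase, on 3, and neither was tested.

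**Figure D4:**
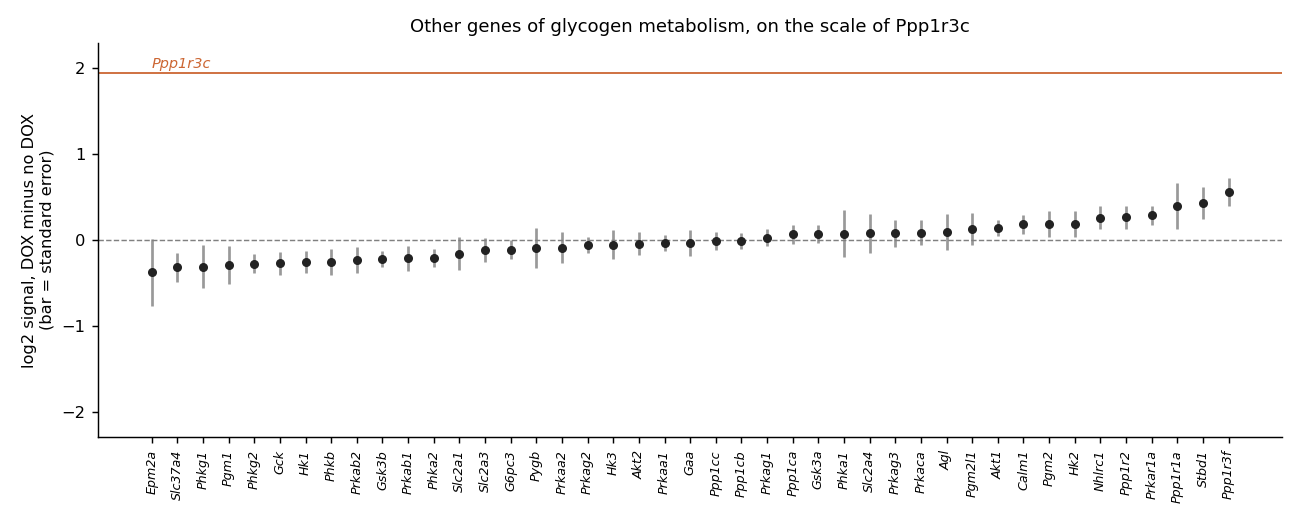
Log2 difference, DOX minus no DOX (vertical axis, bars are standard errors, n = 3 and 3), of the 43 other glycogen genes tested, sorted by value, with the difference of Ppp1r3c as an orange line at 1.95. The points run from -0.38 to 0.56, and none was called.

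Across the 6 arrays, the profile nearest to that of Ppp1r3c among 14435 other named genes was that of Nfil3, a transcriptional repressor of clock-controlled genes. After each gene's own mean was removed, the average difference was 0.17 log2 units. Nfil3 read 0.86, 0.89 and 0.53 without DOX and 2.62, 2.71 and 2.57 with DOX, so its values too were lowest in replicate 3 of each group. Next came Lrrc30, at 0.57, 1.16 and -0.34 without DOX and 2.34, 2.73 and 2.24 with DOX, with an average difference of 0.18. Lonrf3 (0.18), Tmprss9 (0.18) and Kcnj5 (0.21) followed. Tmprss9 and Kcnj5 were not well above background on any no DOX array, so their profiles are bounded there. This likeness is over 6 arrays that share the contrast, and it ranks genes without a test.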

How the data were processed

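The deposited scanner output gives a Cy3 intensity for each spot. Per the file headers it came from Agilent Feature Extraction 11.5.1.1, and the processed signal used here is corrected for background. The authors' value table, an intensity too, equals that signal times 1 factor per array (3.70 to 3.99), so it is linear; no source used here explains those factors, and its column medians were 90.01 to 102.5. All 6 arrays lay on 1 slide with 1 scan per the file headers, so neither could serve as a block.

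Spots marked as outliers (146 to 195 per array) were left out, log2 processed signal was averaged per probe, and arrays were scaled by subtracting their own 75th percentile, taken across probes that are not controls. Accessions were matched to RefSeq symbols (GRCm38.p6): 28331 of 55681 probes had 1 symbol. The design of the array was annotated on another build, so only promoter windows carry coordinates. A probe was tested if either group had all 3 arrays well above background (30934 probes), and the brightest probe stood for a gene.

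The DOX contrast was fitted in R 4.3.3 using limma 3.58.1 (lmFit and eBayes, two-sided, Benjamini-Hochberg over all tested probes, threshold 0.05). On simulated arrays with independent noise per probe, the mean estimates lay close to the added differences. That check does not cover variation shared across probes of an array, or the calls. The members and gene lists were chosen with earlier results of these data known. Of the other pathway genes the 8 with the smallest p were named, and for the called member the 5 nearest profiles. Up to 3 tested or undetected genes of each marker list were named in list order. Aqp5, Cyp2e1, Serpina1a, Tnnc2 and Actn3 were named outside that order, with their values in view. Normexp used the median signal. The alternatives covered background, scaling, filters, the variance model, array weights, pairing, the probe rule and each array left out. The muscle covariate was added after seeing the data.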

Additional observations from a re-analysis of the deposited data

How the results depend on the processing

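The rise of Ppp1r3c kept its direction in all 17 alternatives (log2 1.68 to 2.10, adjusted p 0.0284 to 0.146, limma) and stayed past the threshold in 8, so members called were 1 or 0. The authors' value table is among these 8 and repeats the main fit by construction, since scaling removes its factor per array. The mean of all probes is also among them, and it could not change the log2 difference of Ppp1r3c, which has 1 probe. The muscle covariate, chosen after seeing the data, is among these 8 too. Members called were 0 with quantile normalization, with no filter on dim probes, with the replicate block and when any 1 array was left out (0 to 0). Of all genes tested, 106 were called; leaving out 1 array gave 3 to 51. Normexp with an offset of 50 gave 246, no filter 1, trend and robust settings 192, array weights 484, and the muscle covariate 39, and the cause of these shifts was not tested. The replicate block gave 0, with 4732 genes, 3 of them members, at an unadjusted p under 0.05. No source used here says that the numbers pair the mice. Deviations of same-numbered arrays correlated at -0.117, -0.0099 and 0.0055 across 26244 genes and unnamed probes, and 0 of 6 arrays correlated best with its own number. With so few arrays, these values show no pairing by number but cannot decide whether the mice were paired.

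Members near 0 changed sign without passing. Gys1 went from -0.023 to 0.014 with normexp and 0.092 as the mean of its probes, Gyg from 0.05 to -0.0042 (quantile), -0.082 (array weights) and -0.021 (muscle covariate), Pygm from 0.05 to -0.017, -0.081 and -0.036 in the same fits, and Ugp2 from 0.06 to -0.070 (array weights) and -0.010 (muscle covariate). Leaving out 1 array gave ranges of -0.26 to 0.19 for Gys1, -0.11 to 0.23 for Gyg, -0.15 to 0.23 for Pygm, -0.12 to 0.22 for Ugp2, -0.095 to 0.30 for Ppp1r3a, -0.49 to 0.027 for Ppp1r3b and -0.037 to 0.31 for Gbe1. Ppp1r3d and Pygl kept a lower mean throughout these 17 alternatives. All 13 member probes were well above background on all 6 arrays, and each group held 3 arrays.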
